A study of Mus musculus with 23 samples.

Results

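T (brachyury), Eomes, Mixl1, Gsc, Foxa2, Sox17, Mesp1 and Evx1 are transcription factor genes of the primitive streak, the mesoderm and the definitive endoderm. These 8 genes were chosen by name and were followed through 23 RNA sequencing libraries of mouse embryonic stem cells. They are 8 of 53607 gene rows in the count table, and 7 of them passed the filter on low counts, among 20372 genes tested. Mesp1 did not pass, and T, Mixl1 and Evx1 passed with few counts.

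At gastrulation, epiblast cells that receive Nodal and Wnt signals enter the primitive streak and become mesoderm or definitive endoderm. T and Eomes encode T-box factors: T is known for posterior streak and mesoderm, Eomes for anterior mesoderm and definitive endoderm. Mixl1, Gsc and Evx1 encode homeodomain proteins of the streak, Mesp1 a bHLH factor of early cardiac mesoderm, Foxa2 a forkhead factor of the anterior streak and endoderm, and Sox17 an HMG-box factor of endoderm. Foxa2 and Sox17 are also known from primitive and visceral endoderm, which are extraembryonic, so their RNA alone does not name definitive endoderm.

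All cultures were labelled H-Ras-/-;N-Ras-/-, with a conditional RAS allele and Ubiq-CreERT2, a tamoxifen-activated Cre recombinase under a ubiquitous promoter. In the groups labelled RAS deleted, 4-hydroxytamoxifen had been given for 6 days, and in the groups labelled RAS present it had not. Effects of the drug and of the deletion therefore cannot be told apart. Each RAS state was combined with ERF wild type or ERF knockout (Erf encodes an ETS-family repressor that the RAS-ERK pathway inactivates). The medium was 2iL (the MEK inhibitor PD0325901, the GSK3 inhibitor CHIR99021 and LIF), which holds cells in the naive state, or FA (FGF2 and Activin A) for 48 hours, which moves them toward epiblast-like cells. Activin A acts through the receptors that Nodal uses. Each of the 8 groups had 3 libraries, except the 2 of the RAS-present, ERF wild type cells in FA. The labels do not say whether cultures of 1 group were derived independently or whether a genotype was 1 clone, so p-values measure the spread between these cultures. ERF wild type cells with RAS present are called the reference line, and the other lines are named by their labels.

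Library totals ran from 16.2 to 29.9 M estimated counts. A single gene, Gm26917, held 17.6 to 27.9% of the counts of a library, so the depth left for other genes was lower. Erf RNA was still counted in the lines labelled ERF knockout. Group means were 116 and 152 CPM there in 2iL against 77.6 and 87.8 CPM in ERF wild type, and 57.5 and 60.6 against 63.1 and 69.7 CPM in FA. On the log2 scale the differences in 2iL were 0.58 and 0.79 (edgeR, adjusted p = 0.0022 and 6.9e-05), higher but under 2-fold. In FA they were -0.14 and -0.20 (adjusted p = 0.61 and 0.23), and none of these was a call. The sources used here do not say which part of Erf was altered, so its gene-level count neither checks nor contradicts that label. Hras and Nras RNA were counted in every group as well, at 12.0 to 25.9 and 5.32 to 52.3 CPM over the libraries, and the altered parts of these genes are likewise not given in the sources used here. All 7 epiblast-like markers rose and naive markers fell in FA in each line, 9 of 9 in 3 lines and 4 of 9 in the RAS-deleted line with ERF wild type. Libraries numbered 1 of the 4 ERF wild type groups stood apart, with a median shift over 582 chromosome 8 genes of 0.17 to 0.23 on the log2 scale. None of the 8 regulators lies on chromosome 8, and calls of these regulators that change without these 4 libraries are given both ways.

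The genes lie on GRCm38 (the submitters' processing notes name mm10) as follows: T at chromosome 17, 8434423 to 8442496, Eomes at chromosome 9, 118478212 to 118486132, Gsc at chromosome 12, 104471209 to 104473330, Foxa2 at chromosome 2, 148042877 to 148046969, and Evx1 at chromosome 6, 52313498 to 52318378. Mixl1 lies at 180693043 to 180697034 and Sox17 at 4490931 to 4497354 of chromosome 1, and Mesp1 at 79792241 to 79793788 of chromosome 7. The RefSeq table for GRCm38.p6 holds promoter windows for 6 of the 8 genes, from 250 bases before to 50 bases after each start site. Mixl1 and Sox17 were not matched in it. The windows of Eomes, Gsc and Foxa2 are shown because the results below turn on these genes, and because Eomes and Gsc moved in opposite directions with the medium in the reference line. Capitals mark the 50 bases from the start site onward. Eomes is on the plus strand at chr9:118477939-118478238, Gsc on the minus strand at chr12:104473187-104473486, and the first of 3 annotated starts of Foxa2 on the minus strand at chr2:148046920-148047219.
Eomes: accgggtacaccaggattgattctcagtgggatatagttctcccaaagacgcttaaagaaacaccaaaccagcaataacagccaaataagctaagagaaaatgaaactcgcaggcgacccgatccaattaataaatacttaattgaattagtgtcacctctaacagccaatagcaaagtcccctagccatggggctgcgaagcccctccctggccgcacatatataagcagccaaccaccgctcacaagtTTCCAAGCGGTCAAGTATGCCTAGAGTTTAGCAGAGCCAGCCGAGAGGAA
Gsc: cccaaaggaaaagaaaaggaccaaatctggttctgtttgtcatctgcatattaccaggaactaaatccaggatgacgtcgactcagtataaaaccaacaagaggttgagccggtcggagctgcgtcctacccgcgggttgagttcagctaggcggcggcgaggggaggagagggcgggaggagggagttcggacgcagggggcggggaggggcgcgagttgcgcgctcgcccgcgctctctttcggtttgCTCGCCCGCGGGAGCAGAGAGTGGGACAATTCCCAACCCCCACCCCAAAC
Foxa2: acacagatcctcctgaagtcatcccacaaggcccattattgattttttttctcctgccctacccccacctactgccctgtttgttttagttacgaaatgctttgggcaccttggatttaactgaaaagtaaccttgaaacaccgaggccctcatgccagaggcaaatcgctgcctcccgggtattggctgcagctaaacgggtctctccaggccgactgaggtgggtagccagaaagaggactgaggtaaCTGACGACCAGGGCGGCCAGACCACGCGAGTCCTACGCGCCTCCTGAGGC

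The windows were searched on both strands for CCGGAAG (ETS factors), CTTTGA (TCF/LEF), CAGACA (SMAD) and AGGTGTG (T-box), which are present in 8.86, 16, 21 and 5.84% of 32851 promoter windows of the same length. The 3 windows above hold none of these letters. CTTTGA stands in the T window on the minus strand, at -234 from the start site. The Mesp1 window holds CTTTGA at -31 and -72 and AGGTGTG at 7. The Evx1 window holds CAGACA at -112 and AGGTGTG at -39. The last of the 3 Foxa2 windows, not shown, holds CTTTGA at 16, and CCGGAAG is in none of the 8 windows of these 6 genes. These are matches of letters only, and binding was not measured.

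Per transcript length, the regulators were low in every group. On the TPM scale, Gsc was the highest of the 8 in both ERF wild type groups in 2iL, at 8.40 ± 1.40 TPM in the reference line and 8.77 ± 1.60 TPM with RAS deleted (mean ± SD, n = 3 each). Its range lay above that of the second gene, Eomes, at 1.97 ± 0.39 and 2.46 ± 0.02 TPM. In the ERF knockout groups in 2iL, Sox17 (3.51 ± 1.06 TPM with RAS present, 2.2 ± 0.18 with RAS deleted) and Eomes (2.10 ± 0.42 and 2.15 ± 0.24) led, and their ranges overlapped. In FA, Eomes led in the reference line at 4.87 ± 0.25 TPM (n = 2), and in ERF knockout with RAS deleted at 4.38 ± 0.75 TPM (n = 3). With RAS deleted and ERF wild type, Eomes (2.83 ± 1.00 TPM) and Gsc (2.05 ± 0.48 TPM) were highest with overlapping ranges (n = 3). Sox17 led in ERF knockout with RAS present at 3.24 ± 0.19 TPM (n = 3). T, Mixl1, Mesp1 and Evx1 stayed under 0.5 TPM as a mean in all 8 groups.

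**Figure D1:**
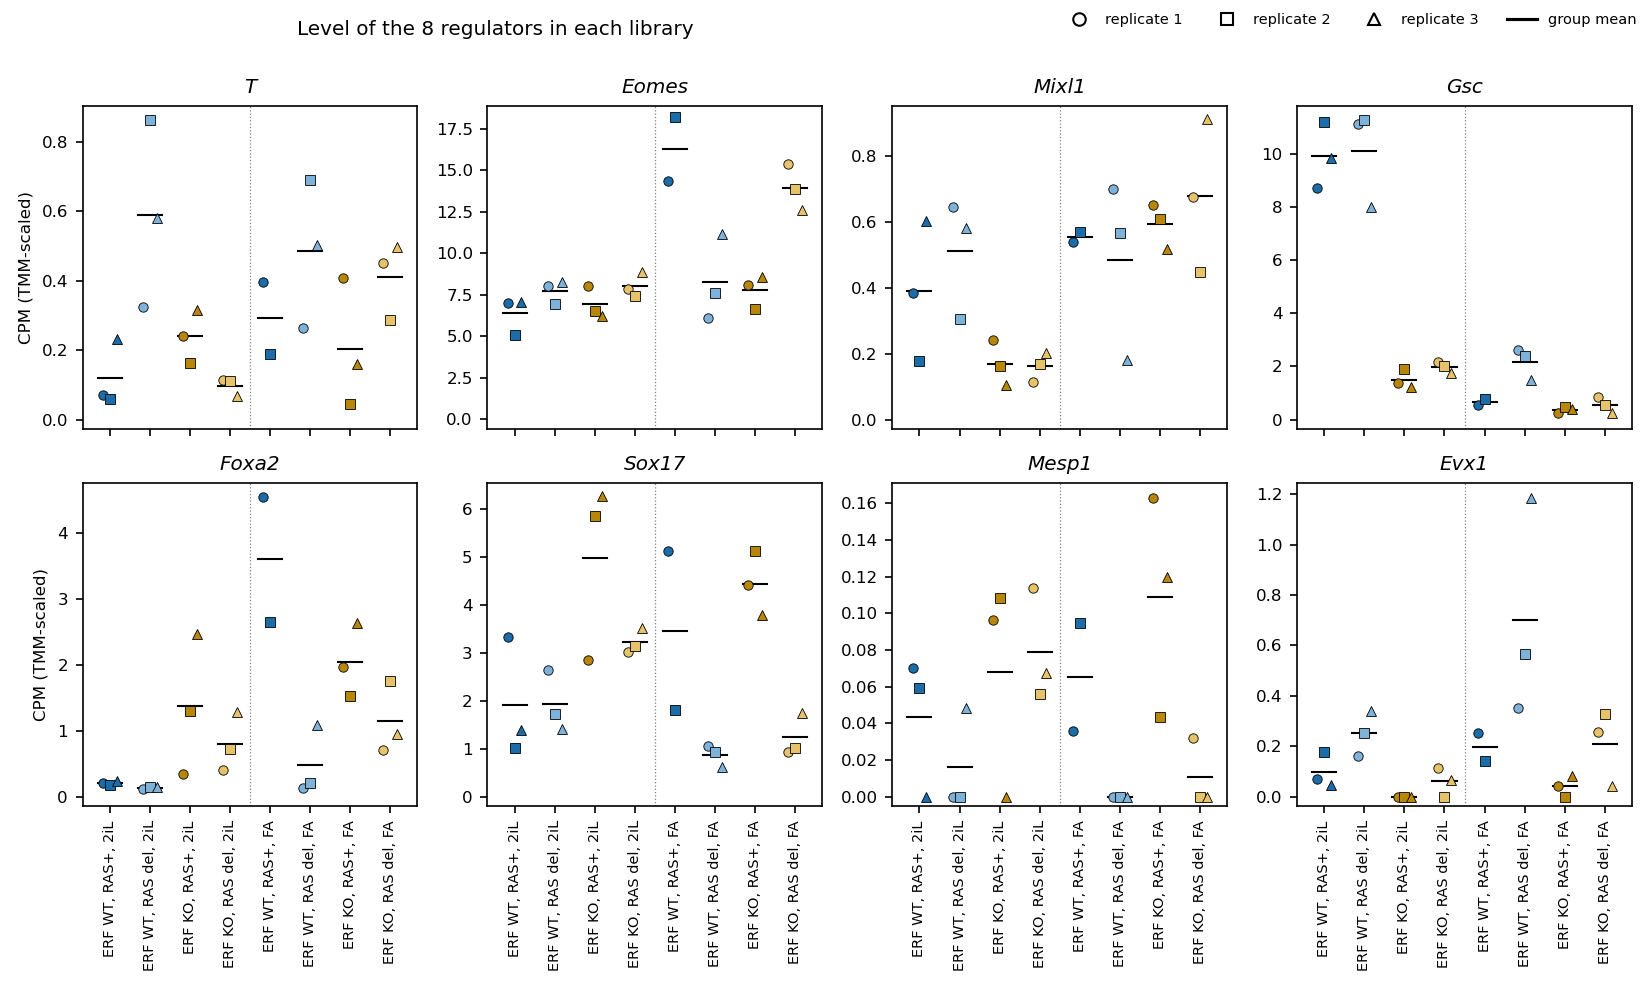
Level of each of the 8 genes in CPM (linear axis, own scale per panel) in every library, by group; marker shape is the replicate number, the horizontal bar the group mean, and the dotted line parts 2iL from FA. Eomes was high in 2 FA groups (12.6 to 18.2 CPM), Gsc in both ERF wild type 2iL groups (7.99 to 11.3 CPM), and T, Mixl1, Mesp1 and Evx1 stayed near or under 1 CPM.

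A gene was called where edgeR's quasi-likelihood test gave a Benjamini-Hochberg adjusted p under 0.05 over all 20372 genes and the change was at least 2-fold (1 on the log2 scale). From 2iL to FA, 2 of the 7 tested regulators rose and 1 fell in the reference line, where 24% of all genes were called. With RAS deleted, 0 rose and 1 fell (16.5% of all genes). With ERF knockout, 1 rose and 1 fell with RAS present (19.7%), and 2 rose and 2 fell with RAS deleted (24.9%). The member shares lie near or above these percentages, over only 7 genes.

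The genotype comparisons gave fewer calls in 2iL for RAS and more for ERF. RAS deletion in 2iL gave 1 call with ERF wild type, where 1.2% of all genes were called, and 0 with ERF knockout (0.211%). In the latter, 0 of 7 had an unadjusted p under 0.05, and DESeq2 also called 0. A fit of these 2 groups alone called 75 genes in place of 43, and 207 with the replicate number as a block, with 0 regulators in both. RAS deletion in FA gave 4 calls with ERF wild type (17.3%) and 1 with ERF knockout (6.88%). ERF knockout gave 3 calls in 2iL with RAS present (9.72%), 4 in 2iL with RAS deleted (13%), 1 in FA with RAS present (2.36%) and 2 in FA with RAS deleted (16.6%). ERF knockout with RAS deleted differed from the reference line in FA at 1 regulator (3.32%).

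Of 35 calls over 17 comparisons, 4 of these being interactions, 16 held in every alternative processing in which they could be tested. These 16 were all calls of Gsc between 2 groups, 3 of 5 calls of Eomes, both rises of Mixl1 in FA, the rise of Foxa2 in the reference line, and 2 falls of Sox17 in cells with ERF knockout and RAS deleted in FA, against the same cells in 2iL and against RAS present.

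**Figure D2:**
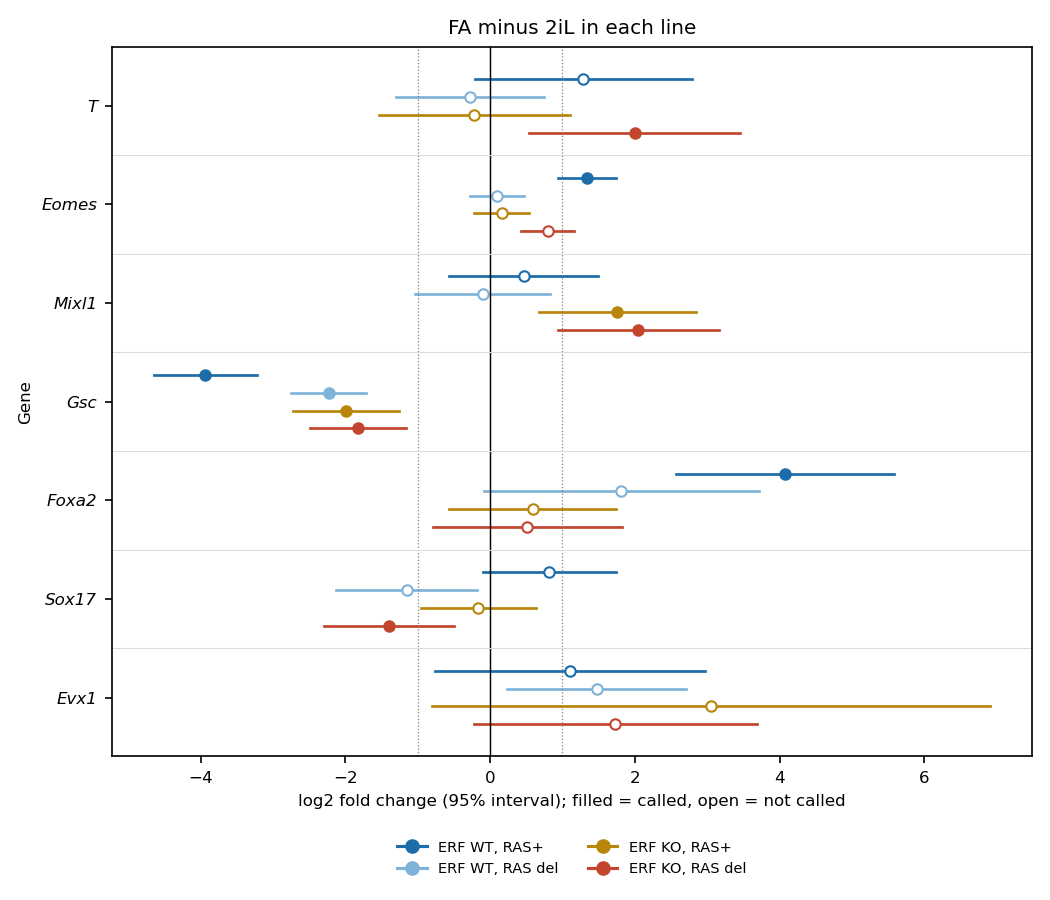
FA minus 2iL in each of the 4 lines: fitted log2 fold change (x axis) with its 95% interval for the 7 tested genes; filled points were called, open points were not, and dotted lines mark 2-fold. Gsc lies to the left of -1 in every line, while Eomes and Foxa2 pass 1 with a call in the reference line alone.

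Eomes, the T-box gene of anterior streak and endoderm, had low levels in naive cells of every genotype and higher levels in FA in 2 of the 4 lines. In 2iL its 12 libraries ran from 5.06 to 8.90 CPM (counts scaled to the library size). The reference line (5.06 to 7.06 CPM) lay below ERF knockout with RAS deleted (7.45 to 8.90 CPM) there, and the other pairs of genotypes overlapped. In FA it stood at 14.4 and 18.2 CPM in the reference line and at 15.4, 13.9 and 12.6 CPM in ERF knockout with RAS deleted. It stood at 6.09, 7.62 and 11.1 CPM with RAS deleted and ERF wild type, and at 8.11, 6.65 and 8.57 CPM with ERF knockout and RAS present. The first pair of FA groups lay above every 2iL library, and the second pair overlapped with the 2iL range. A lower level in bulk RNA can be fewer cells that express a gene or less RNA per cell, and these cannot be told apart here.

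The medium raised Eomes in the reference line by 1.34 on the log2 scale (SE 0.19, adjusted p = 4.5e-06). In ERF knockout with RAS deleted the difference was 0.80 (SE 0.18, adjusted p = 0.00059), which is under 2-fold. In the other lines it was 0.10 (95% interval -0.27 to 0.47) with RAS deleted and 0.16 (-0.22 to 0.54) with ERF knockout, so a 2-fold rise lies outside both intervals. The medium response differed between RAS deleted and present in ERF wild type cells by -1.24 (SE 0.27, adjusted p = 0.0013, 11.9% of all genes called). It differed between ERF knockout and wild type with RAS present by -1.17 (SE 0.27, adjusted p = 0.0063, 4.27% called), or -0.99 without library 2 of the reference line in FA, which is under 2-fold.

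In FA, each of RAS deletion and ERF knockout alone went with lower Eomes, and the combination did not. RAS deletion in ERF wild type cells gave -0.97 (SE 0.19, adjusted p = 0.00026), under 2-fold by a small margin. It passed 2-fold with the replicate block (-1.24, adjusted p = 2.6e-05), without reference library 1 (-1.11, adjusted p = 0.00055) and without RAS-deleted library 3, whose Eomes was the highest of its group (-1.24, adjusted p = 7.8e-06). ERF knockout with RAS present gave a fall of -1.06 (SE 0.19, adjusted p = 0.0015), which is under 2-fold without library 2 of the reference line (-0.87) or without library 2 of the knockout (-0.95). With ERF knockout, RAS deletion gave 0.84 (SE 0.18, adjusted p = 0.0011), and with RAS deleted, ERF knockout gave 0.75 (SE 0.17, adjusted p = 0.0012). The latter became a call without the same library 3 (1.03, adjusted p = 3.2e-05). ERF knockout with RAS deleted differed from the reference line by -0.22 (95% interval -0.61 to 0.17). The RAS effect with ERF knockout minus that with ERF wild type was 1.81 (SE 0.26, adjusted p = 1.3e-05, 13.7% of all genes called). This interaction and the rise in the reference line were called under all 19 and 13 alternatives run for them. Eomes is also known from trophoblast. Of 9 trophoblast markers, 3 rose and 2 fell with FA in the reference line, and 4 rose and 5 fell with RAS deletion in FA in ERF wild type cells. Their summed level ran against that of Eomes in the reference line, from 124 to 137 CPM in 2iL to 41.1 to 53.2 CPM in FA. In FA it was 73.3 to 78.8 CPM with RAS deleted, 53.4 to 74.0 CPM with ERF knockout and at most 46.0 CPM with both, where Eomes was again higher. The part of such cells in the Eomes levels was not tested.

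**Figure D3:**
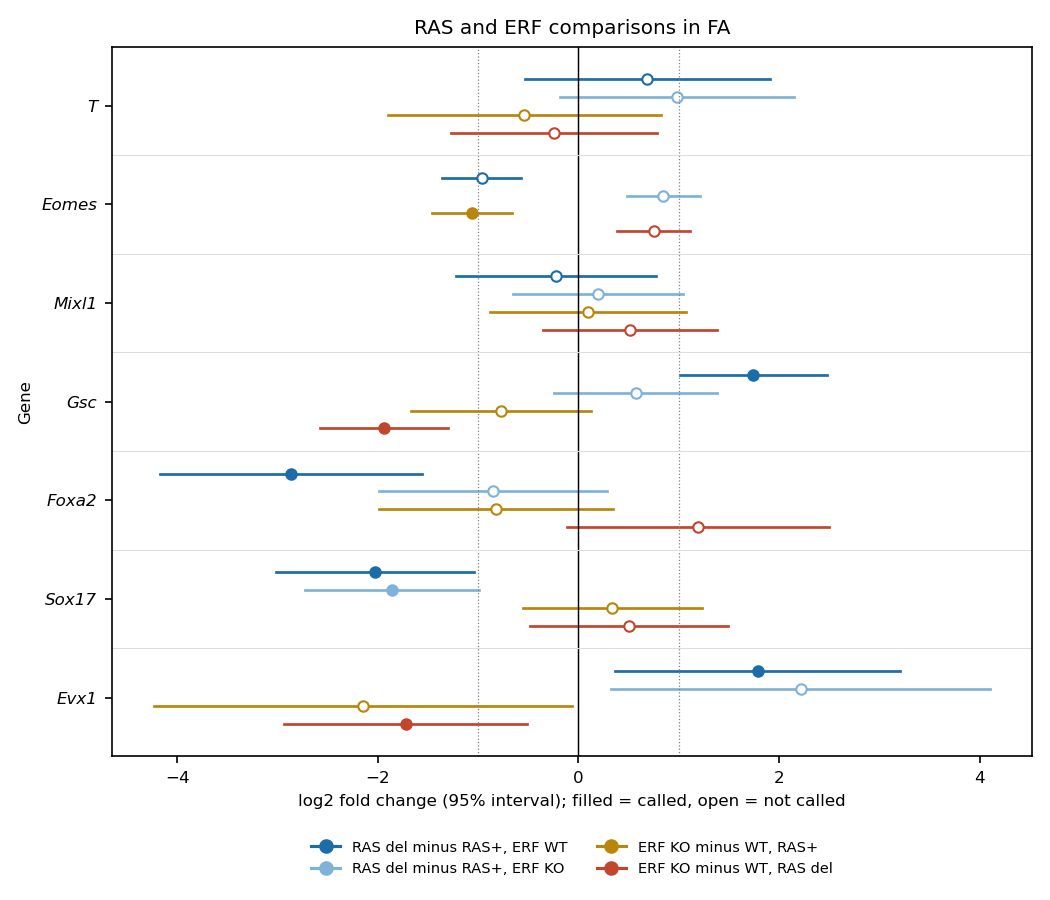
RAS and ERF comparisons within FA: fitted log2 fold change with its 95% interval for the 7 tested genes, in 4 comparisons; filled points were called, dotted lines mark 2-fold. Eomes is the gene whose 2 RAS comparisons (-0.97 and 0.84) and 2 ERF comparisons (-1.06 and 0.75) lie on opposite sides of 0 with intervals that exclude it.

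T, the T-box gene that marks posterior streak and mesoderm, was nearly silent throughout. The reference line gave 2, 1 and 5 counts in 2iL and 11 and 4 counts in FA. RAS deletion with ERF wild type gave 6, 17 and 12 counts in 2iL and 6, 17 and 14 in FA, which include its highest counts of the series, in a range shared by both media. ERF knockout gave 5, 3 and 6 counts in 2iL and 10, 1 and 4 in FA, and with RAS deleted 2, 2 and 1 in 2iL, which is at the floor of 3 counts, and 14, 7 and 12 in FA.

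T was called in 3 comparisons, all of them over these low counts. With RAS deleted in 2iL it was higher than in the reference line by 2.25 (SE 0.62, adjusted p = 0.035) without overlap. That call was lost on leaving out either of libraries 1 and 2 of the reference group or 2 and 3 of the RAS-deleted group, with adjusted p from 0.090 to 0.18. It was also lost with length offsets (1.96, adjusted p = 0.16) and without the 4 libraries numbered 1 (2.18, adjusted p = 0.083). Library numbers paired the 2iL samples in the check described with the processing. Under the replicate block T was not tested, since it fell under the count filter when only these groups were fitted. ERF knockout with RAS deleted in 2iL lay below ERF wild type with RAS deleted by -2.51 (SE 0.69, adjusted p = 0.0056), and rose from 2iL to FA by 2.00 (SE 0.70, adjusted p = 0.019). Because the group on one side was at the floor, the sizes of these last changes are uncertain, and with offsets for effective length they were -0.94 (adjusted p = 0.43) and 1.33 (adjusted p = 0.20). The rise was also lost without library 3 of the 2iL group (1.82, adjusted p = 0.061). With RAS deleted, the responses of the ERF states differed by 2.27 (95% interval 0.48 to 4.06, adjusted p = 0.056), a call with the compared groups alone (0.038), with the replicate block (2.30, adjusted p = 0.036) and without library 1 in 2iL or library 2 in FA of ERF wild type (0.036 and 0.043). RAS deletion in FA with ERF knockout gave 0.99 (95% interval -0.18 to 2.15), a call without library 1 of ERF knockout alone (1.94, adjusted p = 0.045). In the same 2iL comparison as the first call, 3 of 9 tested Nodal and Wnt target genes rose: Sp5 by 2.42, Axin2 by 1.46 and Notum by 1.03 (adjusted p = 0.0021, 0.00049 and 0.011). Axin2 and Notum encode feedback inhibitors of Wnt signalling, and all cells in 2iL received a GSK3 inhibitor.

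Gsc, the goosecoid homeobox gene known from the anterior streak and organizer, had its highest levels in naive medium and not in FA. In 2iL it stood at 8.72, 11.2 and 9.85 CPM in the reference line and at 11.1, 11.3 and 7.99 CPM with RAS deleted. With ERF knockout it stood at 1.39, 1.89 and 1.21 CPM, and with RAS deleted as well at 2.16, 2.02 and 1.75 CPM. The ERF wild type and ERF knockout groups were far apart in 2iL, and the RAS difference within each pair was not called: 0.03 (95% interval -0.44 to 0.51) with ERF wild type and 0.41 (-0.21 to 1.02) with ERF knockout.

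Gsc fell from 2iL to FA in every line, without overlap between the media. In FA it was at 0.540 and 0.758 CPM in the reference line, 2.63, 2.39 and 1.47 CPM with RAS deleted, 0.245, 0.478 and 0.399 CPM with ERF knockout and 0.837, 0.531 and 0.249 CPM with both. The fall was -3.94 (SE 0.34, adjusted p = 1.9e-09) in the reference line and -2.23 (SE 0.25, adjusted p = 2.0e-07) with RAS deleted. It was -1.99 (SE 0.36, adjusted p = 6.9e-05) with ERF knockout and -1.83 (SE 0.32, adjusted p = 4.2e-05) with both. The fall was less with RAS deleted than in the reference line by 1.71 (SE 0.42, adjusted p = 0.0042), a call lost without the 4 ERF wild type libraries numbered 1 (1.47, adjusted p = 0.053). It was less with ERF knockout by 1.95 (SE 0.52, adjusted p = 0.019), a call lost without library 1 of the reference line in FA (1.72, adjusted p = 0.10), without library 2 or 3 of the knockout in FA (1.74 and 1.89, adjusted p = 0.083 and 0.052), or without the 4 libraries together (1.81, adjusted p = 0.062).

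ERF knockout lowered Gsc in 3 of 4 settings. In 2iL the change was -2.72 (SE 0.27, adjusted p = 8.9e-08) with RAS present and -2.35 (SE 0.26, adjusted p = 2.9e-07) with RAS deleted. In FA it was -1.94 (SE 0.31, adjusted p = 2.0e-05) with RAS deleted, and -0.77 (95% interval -1.67 to 0.12) with RAS present, where both groups were under 1 CPM. RAS deletion raised Gsc in FA with ERF wild type by 1.74 (SE 0.35, adjusted p = 0.00035). Naive pluripotency genes moved with Gsc in that comparison: 9 of 9 rose, and their summed level was 1210 to 2016 CPM with RAS deleted against 221 to 254 CPM in the reference line. The RAS effects on Gsc in the 2 ERF states differed by -1.17 (95% interval -2.29 to -0.05, adjusted p = 0.11), a call without RAS-deleted library 3 (-1.39, adjusted p = 0.047) or without library 1 of the line with ERF knockout and RAS deleted (-1.69, adjusted p = 0.027). With ERF knockout, RAS deletion gave Gsc 0.57 (95% interval -0.24 to 1.38), and the summed naive level was 295 to 326 against 207 to 298 CPM. In 2iL the naive sum was 3060 to 3456 CPM in the reference line and 2797 to 2978 CPM with ERF knockout. Of the ERF comparisons, Gsc differed most in this one. From 2iL to FA in the reference line, Gsc fell further, by -3.94, and the naive sum fell to 221 to 254 CPM. The part of naive cells in the Gsc levels was not tested.

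Mixl1, a homeobox gene of the streak that acts in endoderm formation, was at 2 to 22 counts in all libraries. In 2iL it gave 11, 3 and 13 counts in the reference line, 12, 6 and 12 with RAS deleted, 5, 3 and 2 with ERF knockout, and 2, 3 and 3 with both, the last at the floor. In FA it gave 15 and 12, then 16, 14 and 5, then 16, 14 and 13, then 21, 11 and 22 counts in the same order of lines. In both ERF knockout lines Mixl1 was thus lower in 2iL than in FA without overlap, and the 4 FA groups overlapped with each other.

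Mixl1 rose in FA with ERF knockout by 1.76 (SE 0.52, adjusted p = 0.0081) with RAS present and by 2.05 (SE 0.54, adjusted p = 0.0025) with RAS deleted. In ERF wild type cells the differences were 0.47 (95% interval -0.56 to 1.49) and -0.10 (-1.03 to 0.82). With RAS deleted, the responses of the ERF states differed by 2.15 (SE 0.71, adjusted p = 0.028, 11.3% of all genes called). ERF knockout lowered Mixl1 in 2iL with RAS deleted by -1.64 (SE 0.57, adjusted p = 0.026). Both of these calls were lost on leaving out single libraries: the interaction with 6 of 12 libraries (adjusted p then 0.050 to 0.072), and the 2iL difference with 4 of 6 (0.066 to 0.092). DESeq2 gave adjusted p = 0.053 and 0.051 for them, and the replicate block gave the interaction 2.11 (adjusted p = 0.060). Without the 4 ERF wild type libraries numbered 1, the 2iL difference was -1.44 (adjusted p = 0.085).

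Evx1, an even-skipped homeobox gene of the posterior streak, was at or under 3 counts in 15 of 23 libraries. Its highest counts were 8, 14 and 33 with RAS deleted and ERF wild type in FA, against 7 and 3 in the reference line. ERF knockout gave 1, 0 and 2 counts in FA, and 8, 8 and 1 with RAS deleted. In 2iL no library passed 7 counts, and the 3 ERF knockout libraries with RAS present had 0, which allows up to 3 counts in each.

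From 2iL to FA, Evx1 differed by 1.47 (95% interval 0.23 to 2.71, adjusted p = 0.052) with RAS deleted and ERF wild type, without overlap. This became a call with no filter on low counts (0.042), with length offsets (0.013) and without FA library 1 (1.78, adjusted p = 0.020). RAS deletion raised Evx1 in FA with ERF wild type by 1.79 (SE 0.68, adjusted p = 0.041). The call did not hold without either reference library (adjusted p = 0.087 and 0.21), with DESeq2 (0.11), with the compared groups alone (0.078) or with the replicate block (1.16, adjusted p = 0.29). With RAS deleted in FA, Evx1 was lower in ERF knockout by -1.72 (SE 0.58, adjusted p = 0.021). This call was lost with DESeq2 (0.072) and without library 3 of the knockout (-1.27, adjusted p = 0.097). Without library 2 or library 3 of the RAS-deleted ERF wild type group in FA, Evx1 fell under the count filter. None of these Evx1 comparisons with that group could then be tested, so whether they depend on either library is not known. T, which is also a posterior streak gene, differed by 0.69 (95% interval -0.54 to 1.91) with RAS deletion in FA with ERF wild type, and by -0.24 (-1.27 to 0.79) with ERF knockout in FA with RAS deleted. Without library 3 of ERF knockout with RAS deleted in FA, Evx1 was also called higher in that line in FA than in 2iL (2.17, adjusted p = 0.046) and than with ERF knockout alone (2.65, adjusted p = 0.031).

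Mesp1, the cardiac mesoderm gene, was at the floor. It had 0 counts in 9 libraries and at most 3 in 22 of 23, and the highest value was 4 counts, in ERF knockout with RAS present in FA. No fold is given, and its difference between groups was not detectable at this depth.

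Foxa2, the forkhead gene of anterior streak and endoderm, was close to the floor in ERF wild type cells in 2iL and was higher there with ERF knockout, and in the reference line in FA. In 2iL it gave 6, 3 and 5 counts in the reference line and 2, 3 and 3 with RAS deleted. ERF knockout gave 7, 24 and 47 counts in 2iL, and 7, 13 and 19 with RAS deleted, all above the ERF wild type libraries. Library 3 was the highest of both ERF knockout groups and library 1 the lowest.

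In FA, Foxa2 gave 126 and 56 counts in the reference line and 3, 5 and 30 with RAS deleted. ERF knockout gave 48, 35 and 66 counts, and 22, 43 and 23 with RAS deleted. Only the RAS-deleted group with ERF wild type held libraries as low as those of ERF wild type cells in 2iL, and its library 3 stood apart from the other two.

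Foxa2 rose from 2iL to FA in the reference line by 4.08 (SE 0.72, adjusted p = 8.9e-05). In the other lines the differences were 1.81 (95% interval -0.09 to 3.71) with RAS deleted, 0.59 (-0.57 to 1.74) with ERF knockout and 0.51 (-0.79 to 1.82) with both, the first of them a call with no filter on low counts (0.0043). In ERF wild type cells the response with RAS deleted differed from that of the reference line by -2.26 (-5.08 to 0.55, adjusted p = 0.25). This became a call with the replicate block (-2.98, adjusted p = 0.044), with no filter on low counts (0.034) and without RAS-deleted library 3 in FA (-3.78, adjusted p = 0.032). The ERF knockout and reference responses differed by -3.49 (SE 0.93, adjusted p = 0.022) with RAS present, with values of -2.74 to -3.42 that missed the threshold on leaving out library 2 of the reference in 2iL, library 1 of the reference in FA, or library 3 of the knockout in 2iL (adjusted p = 0.051, 0.10 and 0.084). It was also lost with length offsets (-2.75, adjusted p = 0.13) and without the 4 libraries numbered 1 (-3.03, adjusted p = 0.15). RAS deletion in FA lowered Foxa2 with ERF wild type by -2.87 (SE 0.63, adjusted p = 0.00097). Without the 4 ERF wild type libraries numbered 1, this was -1.99 (adjusted p = 0.079), with 1 reference library left. Without RAS-deleted library 3 it was -4.38. The RAS effect in FA differed between the ERF states by 2.01 (95% interval 0.26 to 3.77, adjusted p = 0.081), a call with no filter (0.00045) and without that library (3.53, adjusted p = 0.0032). With RAS deleted in FA, ERF knockout gave Foxa2 1.19 (95% interval -0.12 to 2.50), a call with no filter on low counts (1.20, adjusted p = 0.0059) and without that library (2.70, adjusted p = 0.0045). The line with ERF knockout and RAS deleted differed from the reference line in FA by -1.68 (95% interval -2.88 to -0.47, adjusted p = 0.073), a call with no filter (2.0e-05) and with the compared groups alone (0.038). ERF knockout raised Foxa2 in 2iL by 2.67 (SE 0.74, adjusted p = 0.011) with RAS present and by 2.49 (SE 0.89, adjusted p = 0.033) with RAS deleted, the latter against a group at the floor. The first was 1.91 (adjusted p = 0.088) without knockout library 3, and the second was lost on leaving out 5 of the 6 libraries in turn and without the 4 libraries numbered 1 (2.37, adjusted p = 0.10). With length offsets both were lost (2.02 and 2.05, adjusted p = 0.081 and 0.11).

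Sox17, the HMG-box gene of endoderm, was present in every library at 17 to 142 counts. In 2iL it stood at 3.33, 1.01 and 1.39 CPM in the reference line and 2.63, 1.72 and 1.40 CPM with RAS deleted. It stood at 2.84, 5.85 and 6.25 CPM with ERF knockout and 3.02, 3.14 and 3.50 CPM with both. Library 1 was the highest in both ERF wild type groups, and the reference and ERF knockout ranges overlapped through it.

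In FA the 2 reference libraries stood at 5.11 and 1.80 CPM, again with library 1 the higher, and the RAS-deleted libraries at 1.05, 0.932 and 0.611 CPM. ERF knockout gave 4.40, 5.13 and 3.79 CPM, and 0.933, 1.02 and 1.74 CPM with RAS deleted. The ERF knockout libraries with RAS present lay well above those with RAS deleted.

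RAS deletion lowered Sox17 in FA with ERF knockout by -1.86 (SE 0.42, adjusted p = 0.0026), a call that held in all 13 alternatives. With ERF wild type it was -2.03 (SE 0.47, adjusted p = 0.0016), but -1.05 (adjusted p = 0.16) without reference library 1. Fits without 1 of the 2 reference libraries in FA leave a single library there, which is assumed to vary like the other groups. The RAS effects in the 2 ERF states differed by 0.17 (95% interval -1.15 to 1.48). From 2iL to FA, Sox17 fell in ERF knockout with RAS deleted by -1.39 (SE 0.43, adjusted p = 0.0094) and differed by -0.16 (95% interval -0.95 to 0.63) with ERF knockout alone. It differed by 0.82 (-0.10 to 1.74) in the reference line and by -1.15 (-2.13 to -0.18, adjusted p = 0.052) with RAS deleted. The first of these became a call without library 1 in 2iL (1.53, adjusted p = 0.0092) or without library 2 in FA (1.35, adjusted p = 0.021). The second became a call with DESeq2 (adjusted p = 0.028), with no filter on low counts (0.00053), with the compared groups alone (0.022), with the block added (0.0080), without library 3 in 2iL (0.046) and without the libraries numbered 1 (-1.03, 0.040). The responses of the last pair of lines differed by -1.97 (SE 0.64, adjusted p = 0.029), which was -0.99 (adjusted p = 0.33) without reference library 1 in FA and -1.57 (adjusted p = 0.063) without the 4 libraries numbered 1. It was also lost without reference library 2 or 3 in 2iL (adjusted p = 0.061 and 0.065), without RAS-deleted library 1 in 2iL (0.087) or library 3 in FA (0.071), and with the compared groups alone (0.087). ERF knockout with RAS deleted lay below the reference line in FA by -1.52 (SE 0.45, adjusted p = 0.037), which was -0.54 (adjusted p = 0.59) without that reference library, and -0.54 (adjusted p = 0.41) without the 4 together. This call was lost as well with length offsets (-1.24, adjusted p = 0.15), with the compared groups alone (0.093) and without library 1 or 2 of the line with ERF knockout and RAS deleted (0.14 and 0.12). ERF knockout raised Sox17 in 2iL by 1.32 (SE 0.40, adjusted p = 0.018), and 4 of 6 leave-one-out fits gave adjusted p from 0.066 to 0.085. That call was also lost with the compared groups alone and with the replicate block added (adjusted p = 0.13). With RAS deleted the ERF difference in 2iL was 0.75 (95% interval -0.14 to 1.63), which became a call without the libraries numbered 1 (1.05, adjusted p = 0.012).

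Markers of primitive and visceral endoderm moved in the direction of Foxa2 or Sox17 in some comparisons and not in others. Of the 15 markers, 12 were tested. With FA in the reference line 10 rose and 0 fell, with a median of 2.65 on the log2 scale against 0.03 over all genes. With RAS deletion in FA, 0 rose and 9 fell with ERF wild type (median -2.38), and 0 rose and 6 fell with ERF knockout (median -1.19). With ERF knockout in 2iL, 9 rose with RAS present (median 2.37) and 5 with RAS deleted (median 1.40), and 0 fell. The median over all genes lay between -0.01 and 0.00 in these RAS and ERF comparisons.

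The summed level of the 15 markers was 331 to 380 CPM in the reference line in 2iL and 832 to 1959 CPM with ERF knockout. In the first of these groups Cubn, Afp and Ttr were at the floor, and the sum came from the other markers. In FA it was 812 to 1323 CPM in the reference line, 412 to 542 with RAS deleted, 1185 to 1649 with ERF knockout and 510 to 945 with both. From 2iL to FA in ERF knockout with RAS deleted, where Sox17 fell, the sum was 511 to 937 CPM in 2iL and overlapped with its FA values. In ERF wild type cells without RAS, the sum was 302 to 322 CPM in 2iL, below the FA values without overlap, while Sox17 differed by -1.15 on the log2 scale. Cubn, which encodes an endocytic receptor of visceral endoderm, averaged 248 CPM in the reference line and 0.481 CPM with RAS deleted in FA. The mean sums of these groups were 1067 and 463 CPM, so Cubn alone made a large part of that difference. The sum weights abundant markers most and is not an even measure of the 15. Sox7, another marker of this list, fell by -4.42 (SE 0.43, adjusted p = 3.5e-08) in the same comparison. Defining visceral genes were not all present: Afp had 0 counts in every library of 4 groups, and Afp or Ttr, or both, were at the floor in each group. Over 23 libraries the summed level correlated with Foxa2 at r = 0.84 and with Sox17 at 0.71, as a description of libraries that share depth and groups. In 2iL, Foxa2 and the marker sum had the same order over the 3 libraries of both ERF knockout groups, from 0.336 CPM and 832 CPM to 2.47 and 1959 CPM with RAS present, and from 0.398 and 511 to 1.28 and 937 CPM with RAS deleted. Of the 2 reference libraries in FA, the one with more Foxa2 (4.53 against 2.65 CPM) had the higher sum. Within the RAS-deleted ERF wild type group in FA, by contrast, library 3 had the most Foxa2 (1.08 CPM) and the lowest marker sum (412 CPM). The orders differed in both ERF knockout groups in FA as well. With RAS present, library 2 had the least Foxa2 (1.52 CPM) but not the lowest sum. With RAS deleted, library 2 had the most Foxa2 (1.75 CPM) but not the highest sum. The part of such cells in the Foxa2 and Sox17 differences was not tested.

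**Figure D4:**
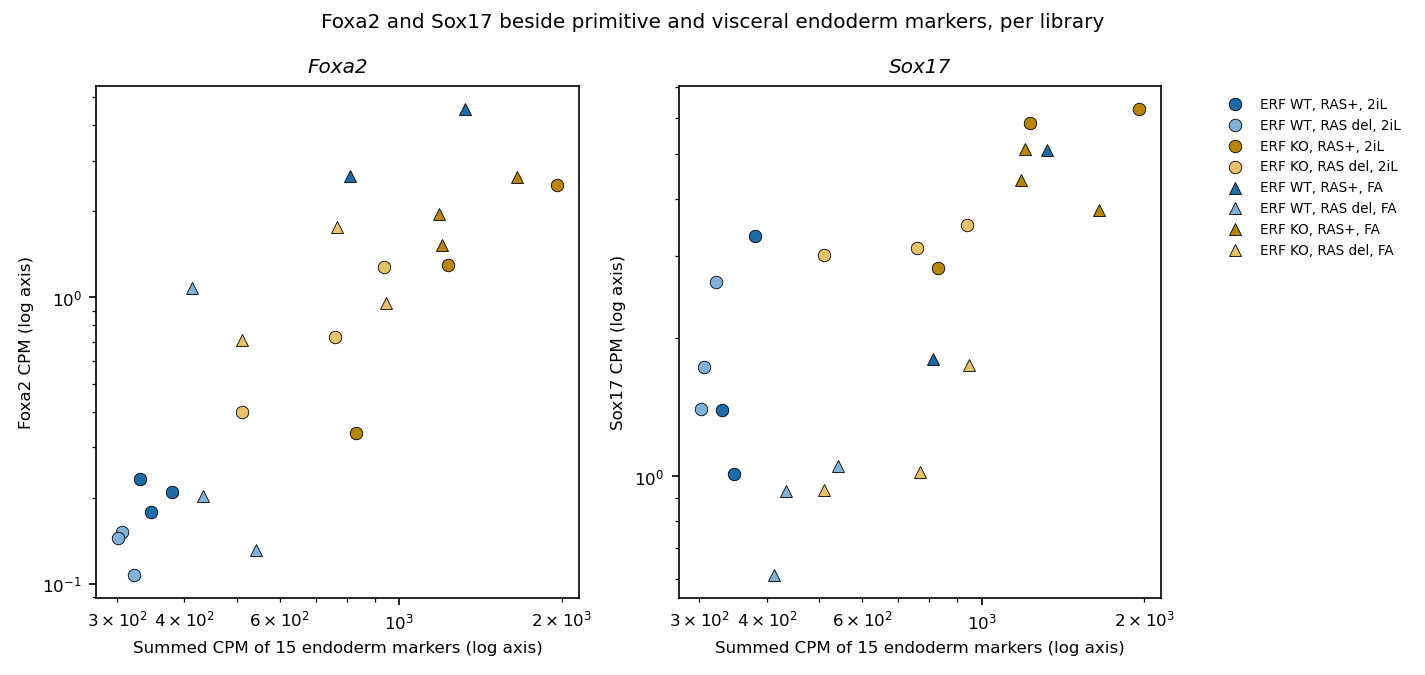
Foxa2 (left) and Sox17 (right) in CPM against the summed CPM of 15 primitive and visceral endoderm markers, 1 point per library, all axes logarithmic; circles are 2iL, triangles FA, colours the 4 lines. Levels of Foxa2 and Sox17 correlated with the marker sum over all 23 libraries (r = 0.84 and 0.71 on the log2(CPM + 1) scale), and the 3 libraries with RAS deleted and ERF wild type in FA lie low for Sox17.

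The signals that induce the streak rose in FA in part. Of 8 signal genes tested, 3 rose and 1 fell in the reference line (median 0.71). Wnt8a rose by 5.91 (SE 0.67), Fgf8 by 5.33 (SE 0.57) and Wnt3 by 2.89 (SE 0.57). Wnt3a fell by -2.59 (SE 0.63), and was called lower in the other lines too (-1.69 with RAS deleted, -1.66 with ERF knockout, -2.78 with both). Their summed level overlapped between the media in the reference line, at 261 to 297 CPM in 2iL and 265 to 279 CPM in FA. It was highest with RAS deleted and ERF wild type in FA, at 377 to 409 CPM. RAS deletion in FA with ERF wild type lowered 2, Wnt8a by -3.66 (SE 0.54, adjusted p = 2.8e-05) and Bmp4 by -1.43 (SE 0.29, adjusted p = 0.00039). Wnt8a averaged 18.2 ± 5.92 CPM in the reference line (n = 2) and 1.38 ± 1.57 CPM with RAS deleted (n = 3). With RAS deleted, ERF knockout raised 4 and lowered 1, with Wnt8a up by 2.89 (SE 0.51), Fgf8 by 2.12 (SE 0.36) and Wnt3 by 1.82 (SE 0.44). Fgf8 averaged 34.1 ± 5.94 CPM in FA in ERF knockout with RAS deleted, 11.6 ± 0.83 in the reference line, 7.77 ± 5.78 with RAS deleted and 2.93 ± 1.09 with ERF knockout. Like Eomes it had its highest group means with both genes changed and with neither, but its RAS-deleted range reached above the reference line.

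Lefty1, a Nodal target that encodes a secreted Nodal inhibitor, rose with FA in every line, including those in which Eomes did not. The rise was 10.15 (SE 0.23) in the reference line, 9.81 (SE 0.22) with RAS deleted, 8.68 (SE 0.21) with ERF knockout and 10.82 (SE 0.23) with both. Of the 9 tested Nodal and Wnt targets, 5, 4, 5 and 4 rose in these lines and 2, 2, 1 and 2 fell, with medians of 4.02, 0.99, 2.91 and 0.78. The Wnt inhibitor Dkk1 fell with RAS deletion in FA by -4.42 (SE 0.48) with ERF wild type and by -3.69 (SE 0.47) with ERF knockout, while Notum rose by 4.06 (SE 0.31) and 1.94 (SE 0.28). Among 10 genes of receptors and transducers, 2 rose and 0 fell in the reference line with FA, a share close to the 24% of all genes called there.

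Other mesoderm regulators were lower in RAS-deleted cells with ERF wild type in FA. Of 12 tested, 0 rose and 8 fell against the reference line, with a median of -2.23. Hoxb1, a homeobox gene of posterior mesoderm and hindbrain, averaged 10.3 ± 0.37 CPM in the reference line (n = 2) and 0.210 ± 0.24 with RAS deleted (n = 3), and fell by -5.50 (SE 0.45, adjusted p = 1.4e-08). Hand1 fell by -4.39 (SE 0.43) and Lhx1 by -7.33 (SE 0.55), the latter to a group of at most 3 counts, so that its size is uncertain. Hand1 and Cdx2, which also fell (-2.75, SE 0.86, adjusted p = 0.013), stand in the trophoblast list as well. With ERF knockout, RAS deletion lowered 2 and raised 0 (median -0.45). ERF knockout with RAS deleted raised 5 and lowered 1 against ERF wild type (median 1.00), Hoxb1 among them by 4.38 (SE 0.44).

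Of 8 other definitive endoderm genes tested, 4 fell with RAS deletion in FA in each ERF state, and at most 1 was called between the ERF states in 2iL. In the reference line 6 rose with FA and 1 fell (median 1.51). RAS deletion in FA raised 0 in both ERF states, with medians of -1.57 and -0.99. Among those that fell were Sox7, by -4.42 and -3.34, and Gata6, by -4.02 and -2.86. Sox7 and Gata6 stand in the primitive and visceral endoderm list as well, and so does Gata4. ERF knockout in 2iL raised 1 and lowered 0 with RAS present, and 0 in either direction with RAS deleted. Their summed level with RAS present reached 35.1 CPM in the knockout and 29.5 CPM in the reference line, and the groups overlapped.

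Over all 23 libraries the genes most like Eomes were Pim2 (r = 0.88), Ldb2 (0.86) and Cfap299 (0.86), by Pearson's r of log2(CPM + 1). Gsc was most like Gsdmd, Pof1b and Ptgfrn (r = 0.97 each). Foxa2 was most like Pdgfra (0.93), a primitive endoderm marker of the list above, and Nostrin (0.92). Sox17 was most like Tnk1 (0.89), Nxf7 (0.89) and Pcbd1 (0.86). Between the 8 regulators, the strongest relations were negative: Gsc with Foxa2 at -0.76 and Sox17 with Evx1 at -0.69. T correlated with Evx1 at 0.54, Foxa2 with Sox17 at 0.51, and Eomes with Foxa2 at 0.50. These values describe libraries that share groups and depth. Of the 12 genes ranked as most alike, 3 per regulator, 3 were also named with Spearman's rho and 3 with the 8 group means.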

How the data were processed

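Ribosomal RNA-depleted, strand-specific libraries were sequenced. Per the submitters' processing notes, bcl2fastq 2.20.0, fastp 0.20.0, Salmon and the mm10 build were used. The authors deposited Salmon's estimated counts and TPM per gene symbol, and a matrix of rounded estimated counts. Salmon divides reads among similar transcripts, so low estimated counts are uncertain. The deposited effective lengths served 1 alternative.

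The rounded counts were tested in edgeR 4.0.16 (R 4.3.3) with filterByExpr, TMM scaling and a robust quasi-likelihood fit of all 23 libraries with 1 coefficient per group, tested on simulated data. Totals were 16.2 to 29.9 M counts. SE is the absolute log2 fold change over the square root of F, and intervals are 95%. At most 3 counts in each library of a group counted as the floor. Levels were compared between groups in CPM and between genes in TPM. Alternatives were DESeq2 1.42.0, other size factors, filters, fold limits and length offsets, the compared groups alone, a replicate block and each library left out; 1 was chosen after seeing the data, leaving out the ERF wild type libraries numbered 1.

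Whether replicate numbers pair samples was checked by correlating deviations from group means. Same-numbered RAS-present and RAS-deleted libraries gave 0.18 to 0.38 in 2iL, so numbers pair them there. In FA with ERF knockout they gave 0.03 to 0.20, above all pairs of unlike number (-0.17 to 0.02). In FA with ERF wild type they gave -0.08 and 0.06. Deviations of the 2 reference libraries mirror each other there, so pairing cannot be read from them. The members and lists were chosen with earlier results of these data known. The text names all 8 members, up to 3 called genes per list with the largest change, and the 3 genes most like each member that reached 1 CPM. Erf, Afp, Ttr, Gata4 and Gm26917 are named outside this rule, after their values were seen. Some genes that the rule would name are not reported here. Not analysed here: other genes of the table.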

Additional observations from a re-analysis of the deposited data

Results flagged for a closer look

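For 8 results, the test of the difference itself showed that a comparison differed between lines. Eomes stood out in 3 of them: the RAS effect in FA was greater with ERF knockout than with ERF wild type by 1.81 on the log2 scale, the medium response was lower with RAS deleted by -1.24, and it was lower with ERF knockout by -1.17. Gsc fell less in FA with RAS deleted (difference 1.71) and with ERF knockout (1.95). The medium response of Sox17 was lower with RAS deleted by -1.97. That of Foxa2 was lower with ERF knockout by -3.49. Among RAS-deleted lines, that of Mixl1 was greater with ERF knockout by 2.15. Of these, the Eomes differences of 1.81 and -1.24 held in all 19 alternatives each.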

How the results depend on the processing

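Of 35 calls of a regulator, 16 held in all alternatives and 19 were lost in at least 1; 0 reversed. Low counts limit T, Mixl1, Evx1 and Foxa2, and Mesp1 could not be tested. With DESeq2 the number of regulators called was 2 in place of 1 for the medium with RAS deleted and ERF wild type, 0 in place of 1 for RAS in 2iL with ERF wild type, 1 in place of 2 for ERF in FA with RAS deleted, and 0 in place of 1 for the medium-ERF interaction with RAS deleted. With no filter it was 4 for the first of these, 2 in place of 1 for both modifications against the reference in FA, and 2 in place of 1 for the RAS-ERF interaction. With no minimum fold it was 2 in place of 1 for RAS in FA with ERF knockout and for the medium-ERF interaction with RAS deleted. Length offsets gave 2 for the medium with RAS deleted, 0 for RAS in 2iL, 2 in place of 4 for ERF in 2iL with RAS deleted, and 0 for both modifications. With the compared groups alone, or with the replicate block added to them, the numbers were 2 for the medium with RAS deleted and ERF wild type, 2 in place of 4 for the medium with both, 0 for RAS in 2iL, 1 in place of 3 and 1 in place of 4 for ERF in 2iL, and 1 for ERF in FA with RAS deleted, and without the block 2 for the medium-ERF interaction with RAS deleted. In these fits some regulators of low count were not tested, and Sox17 accounted for the gain in the first and for a loss in ERF in 2iL with RAS present (adjusted p = 0.060, and 0.13 with the block); without the block it also lost the difference between both modifications and the reference line (0.093) and the medium-RAS interaction (0.087). The block changed no other number by over 1.5 times, although it replaced Mixl1 by T in the medium-ERF interaction with RAS deleted. Without the ERF wild type libraries numbered 1 the numbers were 2 for the medium with RAS deleted, 0 for RAS in 2iL, 0 for both modifications, 1 in place of 3 for the medium-RAS interaction and 1 in place of 3 for the medium-ERF interaction with RAS present. The cause was not tested.

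With each library left out in turn, the numbers ran from 2 to 3 and 1 to 3 for ERF in 2iL (RAS deleted, present), 1 to 3 and 0 to 1 in FA, 0 to 1 for both modifications, 3 to 5 for the medium with both modifications, 1 to 2 with RAS deleted, 2 with ERF knockout and 3 to 4 in the reference line, 0 to 2 and 1 to 3 for the medium-ERF interaction (RAS deleted, present), 2 to 3 for the medium-RAS interaction, 1 to 3 for the RAS-ERF interaction, 0 to 1 and 0 for RAS in 2iL (ERF wild type, knockout), and 3 to 4 and 1 to 2 in FA.

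Over all genes, 244 calls for RAS in 2iL with ERF wild type became 559 with no filter, 104 without the libraries numbered 1 and 70 to 305 with 1 library left out. The 43 calls with ERF knockout became 85 with DESeq2, 240 with no filter, 23 with length offsets, 75 with the compared groups, 207 with the replicate block and 17 to 40 with 1 library left out. The 480 calls for ERF in FA with RAS present became 881 with no filter, 235 without the libraries numbered 1, 266 with the compared groups and 124 to 749 with 1 library left out. With no minimum fold, calls ran from 266 to 11353 in place of 43 to 5076.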

Other observations

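Early neural markers, genes of the other fate open to epiblast cells, differed in direction between members. Of 6 tested among 8, 2 rose and 3 fell with FA in the reference line (median -0.26), and 3 rose and 0 fell with ERF knockout (median 0.42). RAS deletion in FA with ERF wild type raised 1 and lowered 2 (median 0.36). Their summed level was highest in ERF knockout with RAS deleted in FA, at 101 to 105 CPM against 52.2 to 53.0 CPM in the reference line. Pax6, a neural and eye transcription factor gene, was higher there by 1.77 (SE 0.28, adjusted p = 0.00023) than in the reference line, 1 of 6 tested markers called in that comparison. Of 5 general pluripotency markers, 2 rose and 1 fell with FA in the reference line (median -0.17).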
